A study of Mus musculus with 4 samples.

Results

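Brain pericytes were taken as the cell barcodes that passed a fixed combination of marker counts, and 618 of the 60717 barcodes that passed the quality limits were members. A barcode passed the quality limits with at least 1000 unique molecular identifiers (UMIs, each standing for 1 captured RNA molecule), at least 500 genes and at most 20% mitochondrial UMIs. It was a member when it held a UMI of at least 3 of 7 pericyte markers (Kcnj8, Abcc9, Vtn, Atp13a5, Higd1b, Pdgfrb and Rgs5). Members also had at most 2 UMIs of the smooth-muscle genes Acta2, Myh11 and Tagln together, at most 3 of the endothelial genes Cldn5 and Flt1, at most 2 of the fibroblast genes Col1a1 and Dcn, and at most 3 of the microglial genes C1qa and Ctss. The members were thus selected on the measured UMIs of these 16 genes, whose levels are given only as a description.

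Pericytes are mural cells that sit on the outside of capillaries, inside a basement membrane that they share with the endothelium. Endothelial PDGF-B recruits and keeps them through the receptor Pdgfrb, and in the brain they take part in barrier maintenance and in setting capillary diameter. Kcnj8 and Abcc9 encode the pore and the regulatory subunit of the vascular ATP-sensitive potassium channel, Rgs5 a regulator of G-protein signalling, Vtn the matrix protein vitronectin and Atp13a5 a P5-type ATPase.

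The cells came from male mice carrying human APOE in place of the mouse gene by targeted replacement, APOE33 in the groups labelled ApoE3 and APOE44 in those labelled ApoE4. Mice were injected intraperitoneally with lipopolysaccharide (LPS, a bacterial cell-wall component that triggers systemic inflammation) at 5 mg/kg and killed 24 h later, or received NaCl, whose route and time the labels do not give. Each of the 4 groups was 1 library of a glia-enriched brain suspension pooled from 3 mice, and the labels give no age. A run of 4 values always gives ApoE3 with NaCl, ApoE3 with LPS, ApoE4 with NaCl and ApoE4 with LPS, in that sequence. With 1 library a group nothing estimates the spread between mice, so no test between groups was possible. All intervals are 95% intervals that cover counting error only: exact Poisson for levels, exact binomial for shares and exact conditional binomial for ratios.

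The libraries held between 14122 and 29361 barcodes. In ApoE4 LPS 37.5% of barcodes had fewer than 1000 UMIs, against 4.53% to 5.62% in the others, and its quality barcodes had a median of 2311 UMIs, against 4150 to 5954. Pairs of libraries shared 61 to 140 barcode sequences, and no barcode was a member in both libraries of a pair. Members numbered 173, 168, 154 and 123, which is 1.20% (1.03 to 1.39), 1.12% (0.954 to 1.30), 1.18% (1.0 to 1.38) and 0.676% (0.563 to 0.807) of quality barcodes. Their median depth was 2032, 2212, 1957 and 1586 UMIs, and their summed UMIs were 577317, 522173, 554021 and 315238. Members with more than 10000 UMIs numbered 7, 6, 9 and 4 and gave 17.7%, 14.6%, 31.3% and 23.8% of these sums. The members' share of quality barcodes was lower in ApoE4 LPS than in the other 3 libraries beyond counting error. With every barcode thinned at random to 1000 UMIs it was 1.27%, 1.39%, 1.19% and 0.792%. In that library 45.3% of quality barcodes fell in the microglia or macrophage class, against 25.4% to 34.8% in the others. The endothelial class made up 7.29%, 6.79%, 5.25% and 2.61% of quality barcodes. For oligodendrocytes it was 19.0%, 18.2%, 22.5% and 9.66%, and for astrocytes 31.1%, 22.8%, 29.4% and 16.6%. A low share in ApoE4 LPS was thus not particular to members. The members' low share and the depth of the library moved together, and the part of depth or of the other classes in it was not tested.

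The label was checked against 22 pericyte markers that the rule did not use, among them Notch3 (a receptor that mural cells need), Cspg4 (NG2 proteoglycan), Anpep (aminopeptidase N) and Cox4i2 (a subunit of cytochrome c oxidase found in hypoxia-sensing cells). In every library all 22 had a UMI among the members. They made up 0.820%, 0.947%, 0.868% and 0.835% of the UMIs of members with 5 to 7 rule markers, against 0.105%, 0.118%, 0.111% and 0.133% in members with 3 or 4. Members with 3 or 4 rule markers numbered 38, 23, 30 and 60, and 57.9%, 60.9%, 66.7% and 76.7% of them also held 3 or more of 9 astrocyte markers. The data therefore go against the label for many of these 151 barcodes, while the 467 with at least 5 markers (135, 145, 124 and 63) carry the independent markers. Those 467 were not free of other markers: 24.4%, 21.4%, 16.1% and 27.0% held 3 or more astrocyte markers. For 3 or more endothelial markers it was 5.19%, 16.6%, 6.45% and 9.52%. Just outside the threshold, barcodes with exactly 2 rule markers had 0.0301%, 0.0307%, 0.0293% and 0.0331% of their UMIs in the independent markers. Just inside it, barcodes with exactly 3 had 0.0510%, 0.0735%, 0.0400% and 0.123%.

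**Figure D1:**
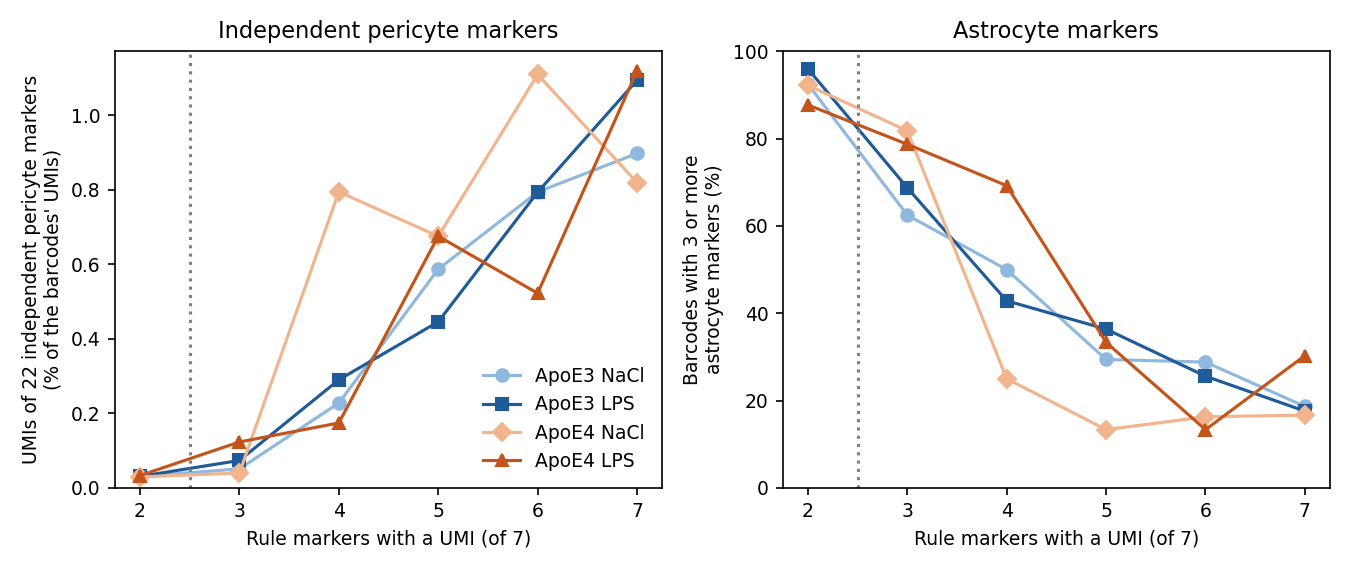
Left: share of UMIs (%) that belonged to 22 independent pericyte markers, against the number of the 7 rule markers with a UMI. Right: share of barcodes (%) with 3 or more astrocyte markers. Each point is all barcodes of 1 library with that number, and the dotted line is the rule's threshold. The left curves rise from at most 0.123% at 3 markers, and at 2 markers 87.7% to 96.0% of barcodes held astrocyte markers.

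Ratios are therefore given for all members, with that of the members with at least 5 rule markers (5-marker members) beside the main genes and wherever it differs by more than 1.5 times. Counts and medians of gene lists are given for both sets. A further set left out barcodes with 3 or more markers of astrocytes, oligodendrocytes, their precursors, neurons, ependymal cells or choroid plexus epithelium (cleaned members, 100, 109, 104 and 51), and its ratio is given where it differs by more than 1.5 times. Smooth-muscle markers summed to 55.4, 80.4, 70.4 and 47.6 CPM in members (UMIs of a gene divided by all UMIs summed and scaled to 1e+06), and those of neutrophils to 0, 23, 7.22 and 57.1 CPM. Choroid plexus markers (Ttr and 5 others) summed to 28220, 4613, 41147 and 64554 CPM, and 3.47%, 1.79%, 3.90% and 4.07% of members held 3 or more of the 6. In 5-marker members they summed to 427, 510.0, 40734 and 94105 CPM, so that in both ApoE4 libraries they stood far above the ApoE3 libraries. The 10% of 5-marker members with most Ttr held 99.2% and 99.7% of its UMIs in ApoE4 NaCl and ApoE4 LPS. Microglial markers summed to 140, 304, 233 and 1339 CPM, and to 157, 284, 274 and 341 CPM in 5-marker members. Of members with 3 or 4 rule markers, 2.63%, 17.4%, 6.67% and 68.3% held 3 or more of the 10 microglial markers. Cleaned members were not selected on microglial, vascular, fibroblast or neutrophil markers, so their values cannot decide the part of those cells. That part in the results below was not tested. For the remaining cell types it was not tested beyond the values of the cleaned members.

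The rule markers had the following levels in members. Vtn was at 4668, 4575, 5864 and 3077 CPM, Rgs5 at 3305, 3767, 2850.1 and 1751, Atp13a5 at 1491, 2248, 1686 and 1117 and Abcc9 at 947, 1544, 1036 and 958. Pdgfrb was at 769, 859.9, 731 and 599.5 CPM, Higd1b at 497, 810.1, 499.98 and 542 and Kcnj8 at 445, 735, 513 and 631. Vtn, Rgs5, Atp13a5 and Pdgfrb were lowest in ApoE4 LPS, while Higd1b, Kcnj8 and Abcc9 were not. Members were selected on these genes, so no difference between libraries is read from them. As a description, members' levels were also set against the highest other cell class of at least 50 barcodes. Vascular smooth muscle (39, 12, 41 and 10 barcodes) and fibroblasts (26, 30, 23 and 14) fell below that limit and were not compared. Genes outside the rule that stood furthest above the compared classes included Aspn (asporin, a small matrix proteoglycan), Cox4i2, Art3, Sod3 (extracellular superoxide dismutase), the transcription factors Zic1 and Zic4, and Cd248 (endosialin). Art3 stood at 343, 446, 487 and 269.6 CPM in members and at 48.8, 53.1, 44.5 and 44.6 CPM in the highest other class, and Cox4i2 at 310.1, 450.0, 334 and 295 CPM against 49.1, 44.0, 43.6 and 47.9.

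The first comparison asked how the pericytes of ApoE3 mice differed 24 h after LPS. Spp1 (osteopontin), Angptl4 (an inhibitor of lipoprotein lipase) and the calcification inhibitor Mgp were higher in the LPS library, as were 9 of 12 measured interferon-stimulated genes and 7 of 16 measured genes that glucocorticoids induce. Of 6945 genes with at least 30 UMIs summed over both libraries, 302 (4.35%) were at least 2-fold higher and 317 (4.56%) at least 2-fold lower, and among 5-marker members 4.42% and 5.42% of 5594 genes were. Spp1 had 34, 780, 29 and 515 UMIs (58.9, 1494, 52.3 and 1634 CPM) in the 4 libraries. Both LPS libraries were high and both NaCl libraries low, and Spp1 was 25.4-fold higher (18 to 36.9, 28-fold in 5-marker members) in ApoE3. It was at 19.6, 98.3, 13 and 87.8 CPM in all other quality barcodes together, and at 189 and 290 CPM in the endothelial class of ApoE3 LPS and ApoE4 LPS.

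Angptl4 had 3, 69, 3 and 36 UMIs (5.2, 132, 5.42 and 114 CPM) and was 25.4-fold higher (8.35 to 126, 58.3-fold in 5-marker members, with no UMI in the lower library in cleaned members). With 3 UMIs in the NaCl library its ratio is poorly bounded from above. Mgp, already present without LPS, had 586, 1479, 452 and 625 UMIs (1015, 2832, 816 and 1983 CPM) and was 2.79-fold higher (2.53 to 3.08, 2.33-fold in 5-marker members). Car4, a membrane-bound carbonic anhydrase, had 112, 442, 125 and 135 UMIs (194, 846, 226 and 428 CPM) and was 4.36-fold higher (3.54 to 5.42, 3.74-fold in 5-marker members). Its level without LPS did not separate the genotypes beyond counting error, and its highest level was in ApoE3 LPS. Cp, the ferroxidase ceruloplasmin, had 102, 304, 126 and 185 UMIs (177, 582, 227 and 587 CPM) and was 3.3-fold higher (2.62 to 4.17, 2.96-fold in 5-marker members). Lower levels were seen for Mfge8 (a bridging protein for phagocytosis and integrins), which was 2.13-fold lower (1.84 to 2.48, 2.35-fold in 5-marker members), for the matrix glycoprotein Tnxb, which was 2.96-fold lower (1.72 to 5.34, 3.42-fold in 5-marker members), and for cytoplasmic actin Actb, which was 1.99-fold lower (1.84 to 2.16, 2.04-fold in 5-marker members).

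**Figure D2:**
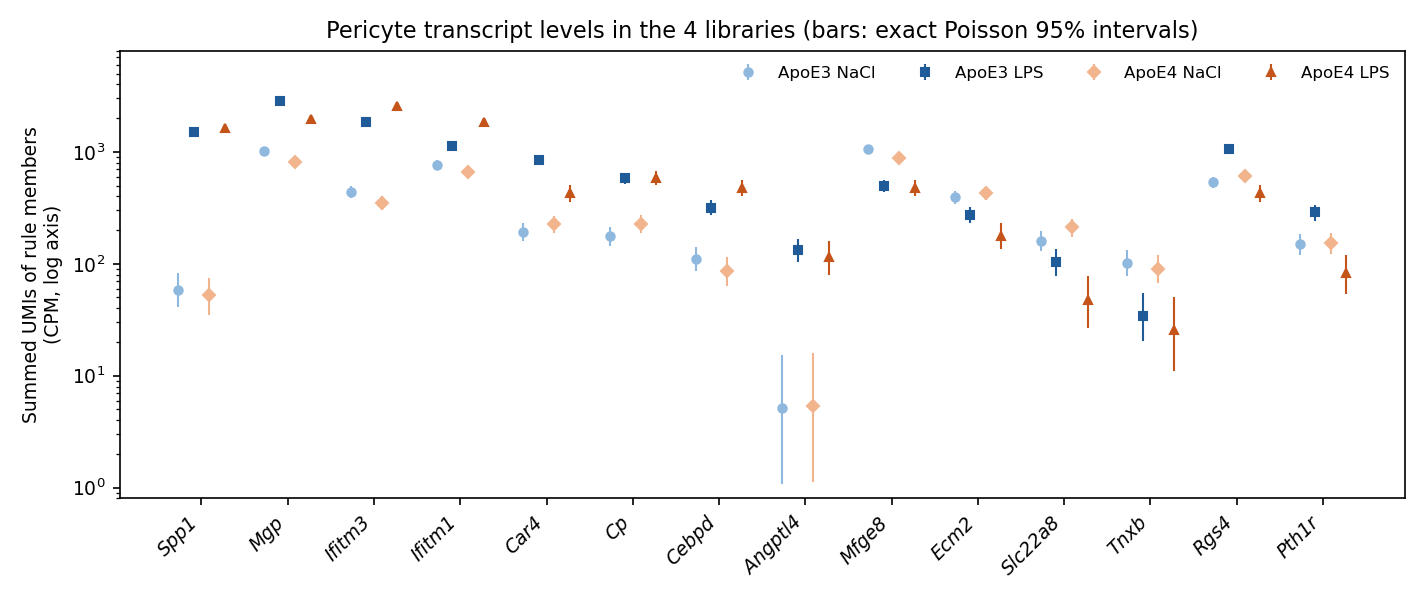
Summed UMIs of all members for 14 genes, in CPM on a log axis, with 1 symbol for each library and exact Poisson 95% intervals. Spp1 stands at 58.9 and 52.3 CPM in the NaCl libraries and at 1494 and 1634 in the LPS libraries, while Pth1r, Rgs4 and Slc22a8 are lowest in ApoE4 LPS.

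Among 30 interferon-stimulated genes, 12 were measured in ApoE3, of which 9 were at least 2-fold higher and none lower, with a median log2 ratio of 1.66 beside 0.02 over all genes. Among 5-marker members 7 of 10 were higher. Ifitm3, a membrane protein that blocks virus entry, had 254, 955, 194 and 810 UMIs (440.0, 1829, 350.2 and 2569.5 CPM) and was 4.16-fold higher (3.62 to 4.79, 3.56-fold in 5-marker members). Isg15, a ubiquitin-like modifier, had 2, 41, 1 and 27 UMIs (3.46, 78.5, 1.8 and 85.7 CPM) and was 22.7-fold higher (5.89 to 193, 17.3-fold in 5-marker members, 14.7-fold in cleaned members). Irf9, the DNA-binding subunit of the interferon-activated complex ISGF3, was 5.34-fold higher (2.18 to 15.7), Ifit3 was 3.95-fold higher (1.66 to 10.8) and Xaf1 was 4.56-fold higher (2.07 to 11.4, 8.41-fold in cleaned members). Other quality barcodes moved the same way: Ifitm3 was at 173, 928, 119 and 862 CPM there and Isg15 at 14.9, 61, 10.9 and 54.6. Ifitm1, which is also one of the independent pericyte markers, was 1.47-fold higher (1.29 to 1.66, 1.22-fold in 5-marker members). Of MHC class I genes, 2 of 9 measured genes were at least 2-fold higher and 0 lower, with a median log2 ratio of 0.60 (3 of 8 higher, 0 lower and a median of 0.60 in 5-marker members). The non-classical heavy chain H2-T23 was 7.08-fold higher (2.74 to 23.3, 4.49-fold in cleaned members) and the light chain B2m 2.18-fold higher (1.69 to 2.81). None of the 20 genes of the guanylate-binding protein and immunity-related GTPase list reached 30 UMIs in ApoE3.

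ISGF3 binds a short repeat, and 2 promoters of list members are shown because they hold it in several copies. The motif searched was GAAANNGAAA and its reverse complement TTTCNNTTTC, on both strands and allowing overlap, in the windows of 250 bases before each transcript start from RefSeq on build GRCm38.p6. It was in a window of 936 of 27025 genes (3.46%), and in that of 9 of the 21 genes of the interferon list that the table held. Of the 12 list genes called higher in either genotype, 9 were in the table and 4 of those held it (Bst2, Ifit3, Ifitm2 and Isg15). The Isg15 window (chr4:156200819-156201068, minus strand) held it 3 times and the Ifit3 window (chr19:34583279-34583528, plus strand) 2 times. Both are printed 5′ to 3′ along the gene's strand, with the matched letters in capitals. A match describes the letters and does not show that a factor bound there.
Isg15: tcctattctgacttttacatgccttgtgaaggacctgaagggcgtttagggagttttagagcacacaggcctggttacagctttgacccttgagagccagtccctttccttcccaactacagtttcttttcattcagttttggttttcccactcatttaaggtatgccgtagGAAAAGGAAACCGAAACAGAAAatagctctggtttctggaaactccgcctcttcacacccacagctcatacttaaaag
Ifit3: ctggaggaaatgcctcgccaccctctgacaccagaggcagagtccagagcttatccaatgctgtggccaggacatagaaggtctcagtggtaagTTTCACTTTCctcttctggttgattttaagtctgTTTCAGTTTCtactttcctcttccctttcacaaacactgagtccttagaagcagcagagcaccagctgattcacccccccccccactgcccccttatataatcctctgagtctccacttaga

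Of 23 chemokine and cytokine genes in the files, 5 reached 30 UMIs in ApoE3. Of these 0 of 5 measured genes were at least 2-fold higher and 1 lower, with a median log2 ratio of -0.67 (0 of 4 higher, 1 lower and a median of -0.86 in 5-marker members). With 5 genes, 0 higher calls lies near the 4.35% of all genes. Cxcl10 had 0, 3, 0 and 7 UMIs in the 4 libraries, Ccl2 1, 1, 1 and 8 and Il6 0, 0, 0 and 0. Of the 5-marker members with a UMI of Il6 there were 0 of 135, 145, 124 and 63, which at 3 counts allows shares of up to 2.22%, 2.07%, 2.42% and 4.76% with a UMI, and up to 2.70%, 2.51%, 2.93% and 5.69% by the upper bounds of the exact binomial intervals. Cxcl12, the capillary chemokine that retains leukocytes, was 1.6-fold lower (1.03 to 2.51, 4.04-fold in cleaned members) in ApoE3, at 60, 34, 46 and 18 UMIs. Il33, an alarmin, had 91, 24, 50 and 33 UMIs and was 3.43-fold lower (2.17 to 5.62, 6.59-fold in 5-marker members, 5.95-fold in cleaned members), the 1 lower call of this list. In ApoE4 LPS its CPM in members was 16.8% of that in the highest other class, and the part of other cells in it was not tested. Il34, the microglial growth factor that binds Csf1r, was at 232, 429, 231 and 213 CPM and 1.85-fold higher (1.49 to 2.31) in ApoE3. Cebpd, a transcription factor of the acute-phase response, was 2.87-fold higher (2.14 to 3.89, 2.4-fold in 5-marker members) and was 1 of 2 genes of 7 measured on the NF-kB list at least 2-fold higher. On the acute-phase list 4 of 10 measured genes were at least 2-fold higher and 0 lower, with a median log2 ratio of 0.50 (4 of 10 higher, 0 lower and a median of 0.46 in 5-marker members). The 4 were Lcn2, Timp1, Cp and Serpina3n, a serine protease inhibitor, which was 18.1-fold higher (7.46 to 57.3, with no UMI in the lower library in cleaned members). In other barcodes Serpina3n was at 13.2, 171, 31 and 315 CPM, and its part in the members' value was not tested. Lcn2, lipocalin 2, had 0, 310, 5 and 208 UMIs, of which 91.9% in ApoE3 LPS came from 1 barcode. For the metalloproteinase inhibitor Timp1, at 1, 99, 0 and 24 UMIs, that share was 94.9%.

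Genes induced by glucocorticoids made another group in ApoE3, in which 7 of 16 measured genes were at least 2-fold higher and 0 lower, with a median log2 ratio of 0.87 (5 of 14 higher, 0 lower and a median of 0.71 in 5-marker members). They include Angptl4, the FK506-binding protein Fkbp5, which was 16.9-fold higher (6.26 to 63.9, 7.57-fold in cleaned members), and the transcription factor Zbtb16, which was 8.54-fold higher (4.54 to 17.8, with no UMI in the lower library in cleaned members). In the other quality barcodes Fkbp5 was at 55.1, 315, 51.3 and 354 CPM and Zbtb16 at 54.1, 155, 56.8 and 128. Of genes of cholesterol synthesis, 0 of 13 measured genes were at least 2-fold higher and 6 lower, with a median log2 ratio of -0.70 (0 of 9 higher, 5 lower and a median of -1.001 in 5-marker members). Msmo1, a sterol oxidase, was 2.58-fold lower (1.9 to 3.57, 1.01-fold the other way in cleaned members). Its direction depended on the cells used, with a log2 ratio of 0.01 in cleaned members. Apod, apolipoprotein D, was 8.8-fold higher (7.32 to 10.7, 1.47-fold in cleaned members). Oligodendrocytes held more of it in every library, and all other barcodes together stood at 574, 3138, 703 and 2799.6 CPM. S1pr1, a sphingosine-1-phosphate receptor that astrocytes also held, was 3.01-fold lower (2.39 to 3.82, 4.69-fold in 5-marker members). Vegfa, the endothelial growth factor, was 5.09-fold lower (2.97 to 9.28, 1.19-fold in cleaned members) and Tgfb2 2.62-fold lower (1.53 to 4.67). Ttc38 was 7.05-fold higher (3.32 to 17.2) and Ston1, an endocytic adaptor, 4.71-fold higher (2.97 to 7.78).

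In ApoE4 the same comparison gave 189 of 5896 genes (3.21%) at least 2-fold higher and 405 (6.87%) at least 2-fold lower, and 2.71% and 8.48% of 4139 genes among 5-marker members. Spp1, at 515 against 29 UMIs, was 31.2-fold higher (21.5 to 47.1, 43.8-fold in 5-marker members) and Angptl4 21.1-fold higher (6.66 to 107, 57.8-fold in 5-marker members, with no UMI in the lower library in cleaned members). Ifitm3 was 7.34-fold higher (6.27 to 8.63, 7.12-fold in 5-marker members), and Ifitm1, at 444, 589, 369 and 586 UMIs (769, 1128, 666 and 1859 CPM) in the 4 libraries, was 2.79-fold higher (2.45 to 3.19, 2.86-fold in 5-marker members). Ifitm1 was highest in ApoE4 LPS, and the interval of its ratio lay apart from that in ApoE3. Cebpd had 64, 166, 48 and 150 UMIs (111, 318, 86.6 and 476 CPM) and was 5.49-fold higher (3.94 to 7.77, 5.0-fold in 5-marker members). Serping1, the C1 inhibitor of complement, had 16, 21, 9 and 42 UMIs (27.7, 40.2, 16.2 and 133 CPM) and was 8.2-fold higher (3.94 to 19.2, 6.87-fold in 5-marker members, 4.2-fold in cleaned members). Mgp was 2.43-fold higher (2.15 to 2.75), Cp 2.58-fold higher (2.05 to 3.26) and Car4 1.9-fold higher (1.48 to 2.44).

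For interferon-stimulated genes in ApoE4, 7 of 8 measured genes were at least 2-fold higher and 0 lower, with a median log2 ratio of 1.43 (2 of 4 higher, 0 lower and a median of 1.11 in 5-marker members), beside -0.10 over all genes. Ifit3 was 6.53-fold higher (2.76 to 17.8, 12-fold in cleaned members) and Xaf1 8.03-fold higher (3.48 to 21.6, 14.4-fold in cleaned members). Isg15, with 27 UMIs against 1, fell short of the 30 UMIs of a measured gene and is not among the 8. It was 47.5-fold higher (7.82 to 1943). On the MHC class I list, 6 of 9 measured genes were at least 2-fold higher and 0 lower, with a median log2 ratio of 1.14 (3 of 7 higher, 1 lower and a median of 0.67 in 5-marker members). The difference between the genotypes in the LPS log2 ratio had a median of 0.78 over the 9 genes, and of 0.015 in 5-marker members. H2-T23 had 5, 32, 7 and 50 UMIs (8.66, 61.3, 12.6 and 159 CPM) and was 12.6-fold higher (5.66 to 32.8, 9.11-fold in 5-marker members), and B2m was 2.7-fold higher (2.09 to 3.49). The guanylate-binding protein Gbp2 had 7, 11, 2 and 46 UMIs in the 4 libraries and the immunity-related GTPase Irgm1 8, 12, 5 and 39. They stood apart in ApoE4 LPS, where 39.1% of the Gbp2 UMIs came from 1 barcode. Gbp2 was 40.4-fold higher (10.6 to 344, 9.59-fold in cleaned members) and Irgm1 13.7-fold higher (5.4 to 44.6, 8.97-fold in 5-marker members, 4.2-fold in cleaned members).

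Metallothioneins, which bind zinc and copper, set the ApoE4 LPS library apart. Mt1 had 1358, 1572, 1038 and 3086 UMIs (2352, 3010.5, 1874 and 9789 CPM) and Mt2 196, 185, 171 and 527 UMIs (339.5, 354, 309 and 1672 CPM). Mt1 was 5.22-fold higher (4.87 to 5.61, 7.63-fold in 5-marker members) and Mt2 5.42-fold higher (4.55 to 6.47, 12.1-fold in 5-marker members, 22.4-fold in cleaned members) in ApoE4, while Mt1 was 1.28-fold higher (1.19 to 1.38, 1.07-fold in 5-marker members, 1.94-fold in cleaned members) in ApoE3. The other quality barcodes showed the same order, at 2460.0, 2980.0, 2298 and 7983 CPM for Mt1 and 418, 422, 341 and 1479.8 for Mt2, and what free RNA added to the members' values was not tested. A few members held most of these UMIs in every library. The 10% of 5-marker members with most held 73.0%, 68.9%, 74.9% and 80.3% of Mt1, and 78.2%, 79.2%, 83.3% and 82.1% of Mt2. In ApoE4 LPS the median 5-marker member had 12.1 UMIs of Mt1 and 0 of Mt2 per 10000, and the highest 791 and 167. Both belong to the glucocorticoid list, on which 9 of 15 measured genes were at least 2-fold higher and 0 lower, with a median log2 ratio of 1.21 (6 of 12 higher, 0 lower and a median of 1.13 in 5-marker members) in ApoE4. Fkbp5 was 9.43-fold higher (4.9 to 19.9, 3.99-fold in 5-marker members, 2.4-fold in cleaned members) and Zbtb16 2.34-fold higher (1.42 to 3.9, 5.25-fold in 5-marker members, 7.67-fold in cleaned members). Gfap, the intermediate filament of astrocytes, was 34-fold higher (11.1 to 169.6, with no UMI in the lower library in cleaned members) and Serpina3n 10.1-fold higher (5.26 to 21.2, 2.4-fold in cleaned members), and both were lower in members than in astrocytes. Rhoj, a small GTPase of vascular cells, had 27, 77, 17 and 78 UMIs and was 8.06-fold higher (4.73 to 14.5). The lipid droplet protein Plin2 was 6.39-fold higher (3.22 to 13.8), and Trp53inp1, a p53 target, was 5.13-fold higher (2.6 to 10.8, 9.11-fold in cleaned members) in ApoE4 and 3.51-fold higher (2.17 to 5.88, 5.77-fold in cleaned members) in ApoE3. The triglyceride lipase Pnpla2 was 4.67-fold higher (2.76 to 8.29, 2.52-fold in cleaned members) in ApoE3.

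A matrix protein and a transporter were among the genes lower in ApoE4 after LPS. Ecm2, an extracellular matrix protein, had 228, 143, 237 and 56 UMIs (395, 274, 428 and 178 CPM) and was 2.41-fold lower (1.79 to 3.28, 2.18-fold in 5-marker members). Both LPS libraries were below their NaCl library, and in ApoE3 it was 1.44-fold lower (1.16 to 1.79). Slc22a8, the organic anion transporter OAT3, had 93, 54, 117 and 15 UMIs (161, 103, 211 and 47.6 CPM) and was 4.44-fold lower (2.58 to 8.18, 4.44-fold in 5-marker members) in ApoE4 and 1.56-fold lower (1.1 to 2.22, 2.41-fold in cleaned members) in ApoE3. It is not particular to members: the endothelial class held Slc22a8 at 234, 25.7, 259.6 and 37.2 CPM, lower in both LPS libraries. The clock output gene Dbp was 3.8-fold lower (2.49 to 6.04) in ApoE4 and 1.87-fold lower (1.46 to 2.42) in ApoE3. Tnxb was 3.56-fold lower (1.67 to 8.69, 8.13-fold in cleaned members), Mfge8 1.87-fold lower (1.55 to 2.26), Angptl2 3.62-fold lower (1.9 to 7.58), Sntb1, a syntrophin of the dystrophin complex, 2.86-fold lower (1.93 to 4.39) and the glutamate receptor Grm7 2.95-fold lower (2.43 to 3.6).

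The libraries of the 2 genotypes are separate, so their lists of calls can be compared. Of 5703 genes measured in both, 210 were called higher in ApoE3 and 169 in ApoE4, and 242 and 348 lower. At least 2-fold higher in both were 50, which is 23.8% of the ApoE3 and 29.6% of the ApoE4 calls. At least 2-fold lower in both were 58, or 24.0% and 16.7%. Over all genes measured in each comparison, 4.35% were higher and 4.56% lower in ApoE3, and 3.21% and 6.87% in ApoE4. Among 5-marker members 4013 genes were measured in both, with 133 and 104 called higher and 169 and 307 lower. Of these, 31 were higher in both (23.3% and 29.8% of the calls) and 22 lower in both (13.0% and 7.17%). Over all genes measured in 5-marker members, 4.42% were higher and 5.42% lower in ApoE3, and 2.71% and 8.48% in ApoE4. The lower calls that the genotypes share in 5-marker members thus lie nearer to the shares over all genes than the higher calls do.

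The share of cells with a UMI was compared at 1000 UMIs for every barcode, in 5-marker members. For Spp1 it was 5.93% (2.59 to 11.3), 46.9% (38.6 to 55.4), 4.03% (1.32 to 9.16) and 44.4% (31.9 to 57.5), and before thinning 10.4%, 54.5%, 8.06% and 54%. In all other quality barcodes it was 0.618%, 2.52%, 0.341% and 5.57%, and in the endothelial class 0.667%, 7.14%, 0.292% and 8.63%, so the members' share lay above both in every library. Spp1 was unevenly spread: in ApoE3 LPS the median member had 3.42 UMIs of it per 10000 and the highest 240, and the 10% of members with most held 47.4% of its UMIs, while in ApoE4 LPS the median was 4.23 and the same 10% held 49.0%. For Ifitm3 the share was 50.4% (41.6 to 59.1), 79.3% (71.8 to 85.6), 44.4% (35.4 to 53.5) and 82.5% (70.9 to 90.9), and for Ifitm1 61.5% (52.7 to 69.7), 68.3% (60.0 to 75.7), 58.1% (48.9 to 66.9) and 77.8% (65.5 to 87.3). All other barcodes together had Ifitm1 in 0.829%, 3.93%, 0.619% and 5.82%. Among single classes of at least 50 barcodes, neutrophils held it at 5093 CPM in ApoE3 LPS, above the 1128 CPM of members, and in the other 3 libraries the highest class was endothelial, at 104, 97.6 and 389 CPM. The endothelial class had Ifitm3 in 58.9%, 90.2%, 58.6% and 90.7%. Mgp was found in 52.6%, 67.6%, 48.4% and 65.1%, Car4 in 29.6%, 58.6%, 30.6% and 42.9%, Cp in 22.2%, 50.3%, 36.3% and 50.8% and Angptl4 in 0.741%, 16.6%, 0% and 17.5% of 5-marker members. Going the other way, Ecm2 was found in 48.9%, 31.7%, 54.8% and 25.4% and Slc22a8 in 23%, 13.8%, 34.7% and 11.1%. Mfge8 was found in 74.8%, 46.2%, 71% and 47.6% of 5-marker members. Its fall with LPS was not particular to them. All other barcodes together had Mfge8 in 21.0%, 11.5%, 21.3% and 13.4%, and astrocytes in 51.7%, 36.2%, 57.3% and 35.8%. Lcn2 was found in 0%, 5.52%, 0% and 3.17%, below the other barcodes at 0.0281%, 11.3%, 0.217% and 33.2% and the endothelial class at 0.381%, 49.4%, 2.19% and 49.1%. No expression in members is read from it.

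**Figure D3:**
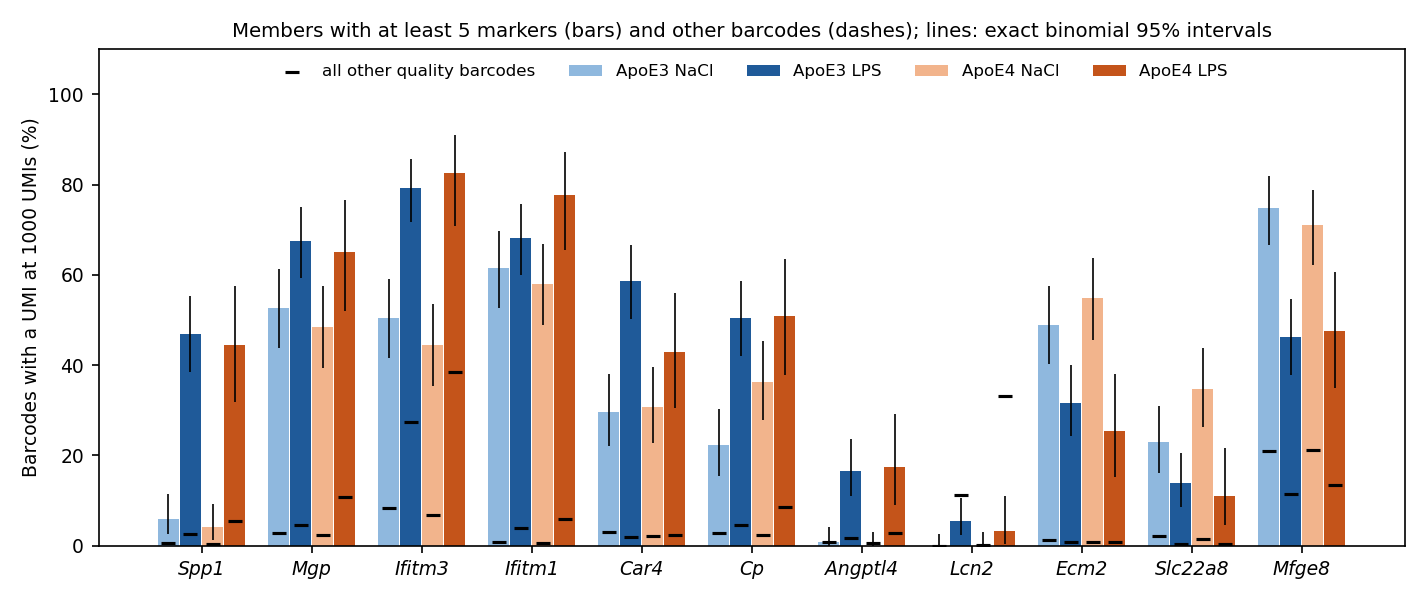
Share of 5-marker members (%) with a UMI of each of 11 genes after thinning every barcode to 1000 UMIs, with 1 bar for each library, exact binomial 95% intervals as lines, and the share in all other quality barcodes as a black dash. Spp1 goes from 5.93% and 4.03% in the NaCl libraries to 46.9% and 44.4% in the LPS libraries, and Lcn2 lies below its dash in both LPS libraries.

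The 22 independent pericyte markers had median ratios of opposite sign after LPS in the 2 genotypes. In ApoE3 0 of 22 measured genes were at least 2-fold higher and 0 lower, with a median log2 ratio of 0.46 (0 of 22 higher, 0 lower and a median of 0.27 in 5-marker members). With 22 genes, 0 calls lies near the shares over all genes, 4.35% higher and 4.56% lower. In ApoE4 1 of 22 measured genes were at least 2-fold higher and 3 lower, with a median log2 ratio of -0.86 (1 of 22 higher, 3 lower and a median of -0.63 in 5-marker members). The ApoE3 median depended on the cells: it was -0.10 with members thinned to 1000 UMIs and 0.03 in cleaned members. The ApoE4 median ranged from -1.28 with every cell weighted alike to -0.29 with at least 2000 UMIs. The difference of the 2 log2 ratios had a median of -0.89 over the markers (-0.55 in 5-marker members) beside -0.11 over all genes, and its approximate counting interval lay below 0 for 18 of 22 and above 0 for 1, Ifitm1. Over all 6393 genes with at least 60 UMIs in the 4 libraries together it lay below 0 for 11.4% and above 0 for 7.63%. In 5-marker members it lay below 0 for 12 of 22 and above 0 for 1, beside 8.9% and 5.94% of the same 6393 genes. The share of barcodes with few markers was also highest in ApoE4 LPS, 60 of 123 members.

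Notch3, the receptor, was near its NaCl level in ApoE3 after LPS and below it in ApoE4. Notch3 had 300, 257, 351 and 103 UMIs (519.6, 492, 634 and 327 CPM) and was 1.94-fold lower (1.55 to 2.44, 1.73-fold in 5-marker members) in ApoE4 and 1.06-fold lower (0.891 to 1.25, 1.23-fold in 5-marker members) in ApoE3. Art3 was 1.81-fold lower (1.41 to 2.33) in ApoE4. Pth1r, the parathyroid hormone receptor, had 87, 150, 85 and 26 UMIs (151, 287, 153 and 82.5 CPM). It was 1.91-fold higher (1.45 to 2.51, 1.6-fold in 5-marker members) in ApoE3 and 1.86-fold lower (1.19 to 3.01, 1.77-fold in 5-marker members) in ApoE4, so that the LPS libraries of the 2 genotypes lay on either side of the NaCl libraries. Slc30a10, a manganese exporter, had 113, 154, 124 and 31 UMIs (196, 295, 224 and 98.3 CPM) and was 1.51-fold higher (1.17 to 1.94, 1.35-fold in 5-marker members) in ApoE3 and 2.28-fold lower (1.53 to 3.49, 1.97-fold in 5-marker members) in ApoE4.

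**Figure D4:**
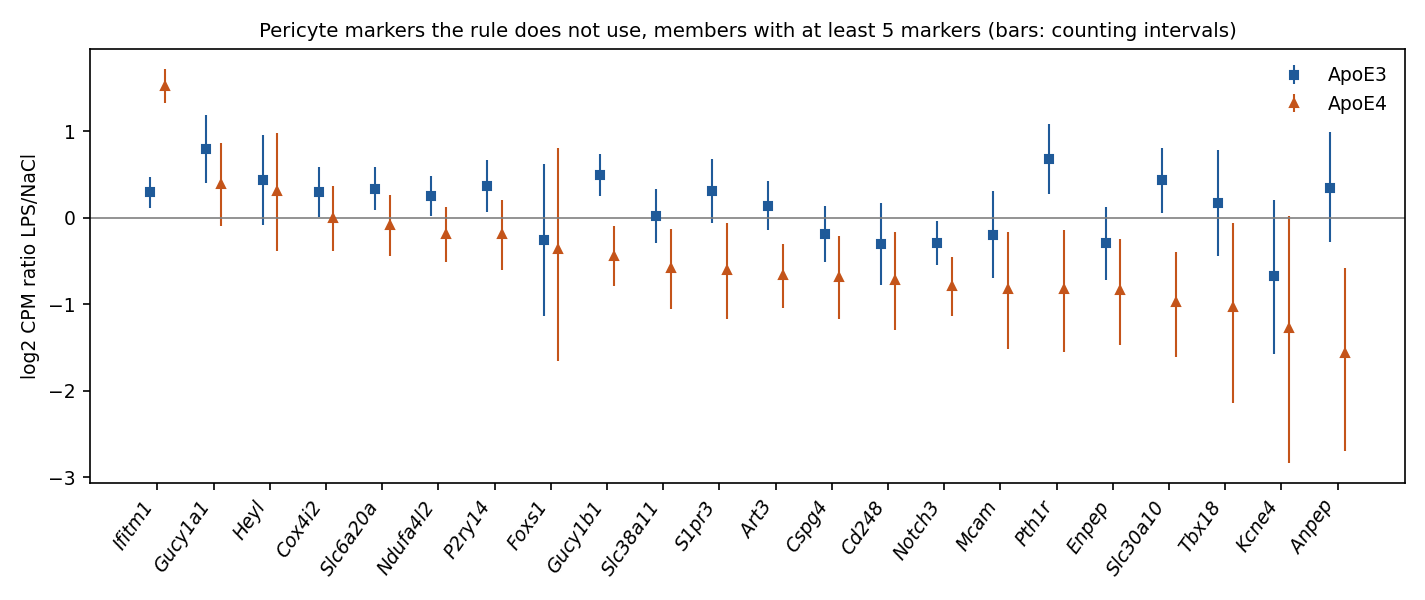
log2 ratio of CPM, LPS over NaCl, for the 22 pericyte markers that the rule did not use, in 5-marker members, with exact counting intervals, squares for ApoE3 and triangles for ApoE4. Ifitm1 is highest in ApoE4, and most other triangles lie below the squares, with list medians of -0.63 and 0.27.

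Genes of vascular tone and contraction also had medians of opposite sign. The list shares genes with the independent markers, among them Gucy1b1, S1pr3 and Kcne4, so it is no separate view of them. In ApoE3 2 of 27 measured genes were at least 2-fold higher and 0 lower, with a median log2 ratio of 0.29 (1 of 27 higher, 2 lower and a median of 0.10 in 5-marker members). In ApoE4 1 of 27 measured genes were at least 2-fold higher and 3 lower, with a median log2 ratio of -0.51 (1 of 27 higher, 2 lower and a median of -0.38 in 5-marker members). The difference had a median of -0.87, and its interval lay below 0 for 17 of 27 genes and above 0 for none, beside the 11.4% and 7.63% of all genes. In 5-marker members the median was -0.59 and the interval lay below 0 for 11, and the ApoE3 calls there were Des higher and Ednrb and Cnn2 lower. The soluble guanylate cyclase subunits, the receptor of nitric oxide, are examples: Gucy1a1 was 1.99-fold higher (1.54 to 2.58) in ApoE3, and Gucy1b1, at 250, 370, 278 and 110 UMIs (433, 709, 502 and 349 CPM), was 1.64-fold higher (1.39 to 1.93, 1.41-fold in 5-marker members) in ApoE3 and 1.44-fold lower (1.15 to 1.81, 1.36-fold in 5-marker members) in ApoE4. Rgs4, which shortens G-protein signals, had 310, 549, 337 and 135 UMIs (537, 1051, 608 and 428 CPM) and was 1.96-fold higher (1.7 to 2.26, 1.68-fold in 5-marker members) in ApoE3 and 1.42-fold lower (1.16 to 1.75, 1.37-fold in 5-marker members) in ApoE4. The cyclic-GMP-dependent kinase Prkg1 was 1.77-fold higher (1.57 to 2.0) in ApoE3 and 1.02-fold higher (0.867 to 1.19) in ApoE4, and caldesmon, Cald1, 1.57-fold higher (1.43 to 1.72) and 1.08-fold lower (0.953 to 1.23, 1.03-fold the other way in cleaned members). Desmin, Des, the intermediate filament of mural cells, went the same way in both, 3.82-fold higher (1.91 to 8.28) in ApoE3 and 2.39-fold higher (1.13 to 5.14, 4.0-fold in cleaned members) in ApoE4. Itga1, a collagen-binding integrin, had 270, 343, 324 and 124 UMIs (468, 657, 585 and 393 CPM) and was 1.4-fold higher (1.19 to 1.65, 1.24-fold in 5-marker members) and 1.49-fold lower (1.21 to 1.84, 1.43-fold in 5-marker members).

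Basement membrane and matrix genes are given beside the shares of all genes. Those were 4.35% higher and 4.56% lower in ApoE3, and 3.21% higher and 6.87% lower in ApoE4. With 16 genes on the list, 0 lower calls lies near these shares. For ApoE3, 3 of 16 measured genes were at least 2-fold higher and 0 lower, with a median log2 ratio of 0.41 (1 of 16 higher, 0 lower and a median of 0.34 in 5-marker members). For ApoE4, 5 of 16 measured genes were at least 2-fold higher and 0 lower, with a median log2 ratio of 0.05 (4 of 14 higher, 0 lower and a median of 0.12 in 5-marker members). The collagen IV chain Col4a1 was 2.03-fold higher (1.62 to 2.55) and 2.1-fold higher (1.56 to 2.82), and the metalloproteinase inhibitor Timp3 1.6-fold higher (1.38 to 1.87) and 2.47-fold higher (2.04 to 2.99, 5.85-fold in cleaned members). The laminin chain Lamc1 was 1.8-fold higher (1.47 to 2.2) in ApoE3, and tissue plasminogen activator, Plat, 2.22-fold higher (1.71 to 2.89) in ApoE4. Among solute carriers of pericytes, 0 of 10 measured genes were at least 2-fold higher and 0 lower, with a median log2 ratio of 0.18 (0 of 8 higher, 0 lower and a median of 0.07 in 5-marker members) in ApoE3. In ApoE4 1 of 9 measured genes were at least 2-fold higher and 2 lower, with a median log2 ratio of -0.25 (0 of 7 higher, 1 lower and a median of -0.21 in 5-marker members). The solute carrier list shares Slc30a10 and Slc38a11 with the independent markers. Among ligands and receptors of signalling with the endothelium, 1 of 19 measured genes were at least 2-fold higher and 2 lower, with a median log2 ratio of -0.02 (1 of 17 higher, 2 lower and a median of -0.03 in 5-marker members) in ApoE3. In ApoE4 1 of 18 measured genes were at least 2-fold higher and 1 lower, with a median log2 ratio of 0.02 (1 of 15 higher, 0 lower and a median of -0.31 in 5-marker members). Pleiotrophin, Ptn, a growth factor abundant in members, had 3556, 3097, 2866 and 908 UMIs (6159.5, 5931, 5173 and 2880.4 CPM). It was 1.8-fold lower (1.67 to 1.94) in ApoE4 and 1.04-fold lower (0.989 to 1.09) in ApoE3. Outside members Ptn was found less often with LPS in both genotypes. After thinning, 52.5%, 29.6%, 51.7% and 30.5% of other barcodes held it, and 75.5%, 33.6%, 70.6% and 37.7% of the endothelial class. Of adhesion molecules, 0 of 11 measured genes were at least 2-fold higher and 1 lower, with a median log2 ratio of -0.31 (0 of 10 higher, 1 lower and a median of -0.36 in 5-marker members) in ApoE3. In ApoE4 1 of 11 measured genes were at least 2-fold higher and 1 lower, with a median log2 ratio of -0.57 (1 of 10 higher, 0 lower and a median of -0.53 in 5-marker members).

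**Figure D5:**
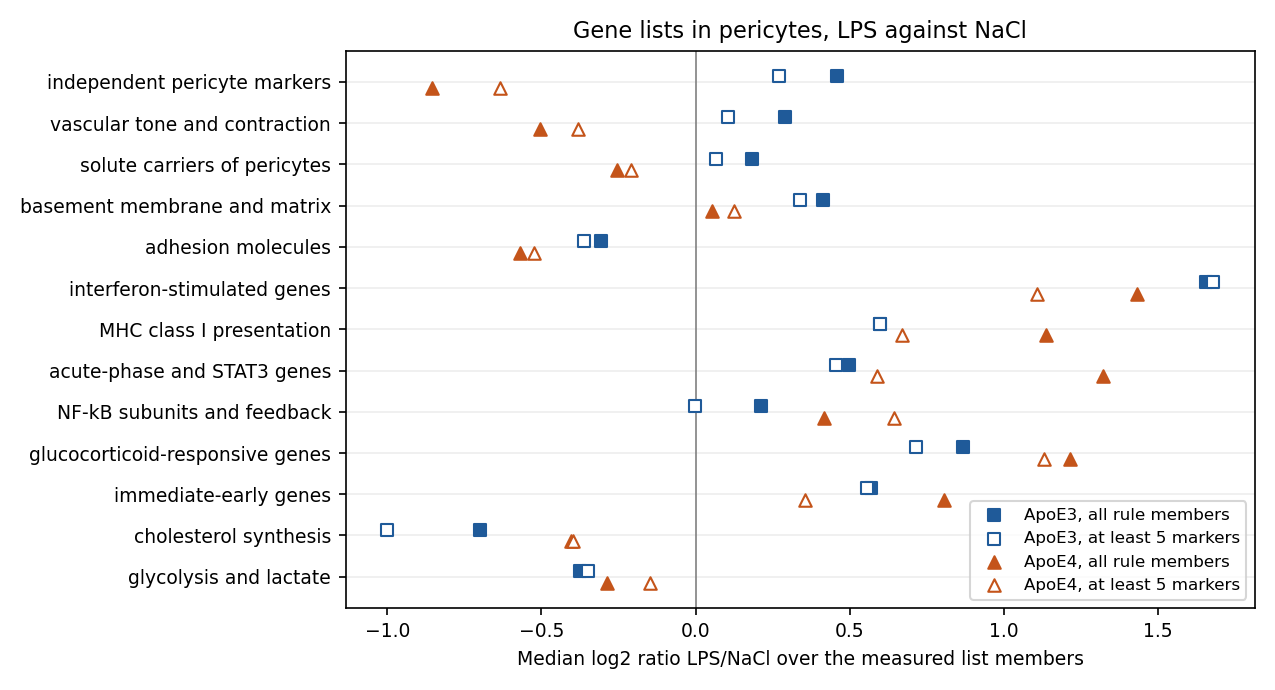
Median log2 ratio, LPS over NaCl, over the measured genes of 13 lists, with squares for ApoE3 and triangles for ApoE4, filled for all members and open for 5-marker members. The interferon list lies at 1.66 and 1.43, and the independent markers at 0.46 in ApoE3 and -0.86 in ApoE4.

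Without LPS a smaller share of genes passed the 2-fold limit between the genotypes. The NaCl libraries also held the most member UMIs, 577317 and 554021 against 522173 and 315238 with LPS, and the part of depth was not tested. Of 7057 genes, 171 (2.42%) were at least 2-fold higher and 159 (2.25%) at least 2-fold lower in ApoE4, and 2.86% and 4.97% of 5415 genes in 5-marker members. None of the 22 independent markers was at least 2-fold different, with a median log2 ratio of 0.11 beside -0.03 over all genes, and none of 26 measured genes of vascular tone. On lists of this size 0 calls lies near the 2.42% and 2.25% of all genes, so it shows no particular stability of these genes. Notch3 was 1.22-fold higher (1.04 to 1.43), Spp1 1.13-fold lower (0.665 to 1.91, 1.25-fold the other way in cleaned members), Mgp 1.24-fold lower (1.1 to 1.41), Ifitm3 1.26-fold lower (1.04 to 1.52) and Ifitm1 1.15-fold lower (1.0 to 1.33). On the cholesterol synthesis list 1 of 16 was higher and none lower. Insig1, a sterol sensor, had 35, 22, 77 and 25 UMIs (60.6, 42.1, 139 and 79.3 CPM) and was 2.29-fold higher (1.52 to 3.52, 2.41-fold in 5-marker members, 3.67-fold in cleaned members). The guidance protein Ntn1 (netrin 1) had 67, 89, 110 and 31 UMIs (116, 170.4, 199 and 98.3 CPM) and was 1.71-fold higher (1.25 to 2.35, 1.77-fold in 5-marker members), Rgs3 was 2.66-fold higher (1.51 to 4.88, 2.32-fold in 5-marker members), Gpr180 3.05-fold higher (1.63 to 6.06, 3.01-fold in 5-marker members) and Spsb2, an adaptor of a ubiquitin ligase, 2.84-fold higher (1.38 to 6.29, 2.91-fold in 5-marker members).

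Lower in ApoE4 without LPS were Mrpl52, a mitochondrial ribosomal protein, at 1.99-fold lower (1.36 to 2.95), Cnrip1, a partner of the cannabinoid receptor, at 2.67-fold lower (1.42 to 5.33, 4.76-fold in cleaned members), and the phosphatase Ppm1m, at 4.8-fold lower (1.8 to 16). Astrocyte-high genes were lower as well: the glutamate transporter Slc1a2 was 1.49-fold lower (1.37 to 1.63, 2.75-fold in 5-marker members), the cystine transporter Slc7a11 2.74-fold lower (1.95 to 3.9, 7.57-fold in 5-marker members, with no UMI in the lower library in cleaned members) and S1pr1 1.6-fold lower (1.34 to 1.93, 2.85-fold in 5-marker members, 3.69-fold in cleaned members). Over the 9 astrocyte markers the 5-marker members had 5549 CPM in ApoE3 NaCl and 2877 in ApoE4 NaCl, and the part of this in those 3 genes was not tested. Fos, an immediate-early gene, was 9.65-fold higher (6.0 to 16.4), with 19, 65, 176 and 231 UMIs in the 4 libraries and 24.4% of those in ApoE4 NaCl from 1 barcode.

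With LPS, 151 of 5667 genes (2.66%) were at least 2-fold higher and 372 (6.56%) at least 2-fold lower in ApoE4 than in ApoE3, and 2.08% and 9.59% of 4371 in 5-marker members. This comparison shares its 2 libraries with the LPS comparisons above, so it is no independent view of them. The intervals of Spp1 and Angptl4 included equal levels, Spp1 being 1.09-fold higher (0.977 to 1.22, 1.32-fold in 5-marker members, 1.9-fold in cleaned members) and Angptl4 1.16-fold lower (0.763 to 1.78, 1.0-fold in 5-marker members, 1.33-fold the other way in cleaned members). Mt1 was 3.25-fold higher (3.06 to 3.46, 3.76-fold in 5-marker members), Mt2 4.72-fold higher (3.98 to 5.61, 6.34-fold in 5-marker members, 10.1-fold in cleaned members), Serping1 3.31-fold higher (1.92 to 5.89, 3.25-fold in 5-marker members), H2-T23 2.59-fold higher (1.63 to 4.17, 2.43-fold in 5-marker members) and H2-D1 2.1-fold higher (1.62 to 2.73, 2.06-fold in 5-marker members). Ifitm1 was 1.65-fold higher (1.47 to 1.85, 1.96-fold in 5-marker members), Ifitm3 1.4-fold higher (1.28 to 1.54), Cebpd 1.5-fold higher (1.19 to 1.88) and Plat 1.66-fold higher (1.29 to 2.12). The secreted glycoprotein hormone Stc1, with 10, 16, 12 and 30 UMIs, was 3.11-fold higher (1.64 to 6.1). Of immediate-early genes 6 of 12 measured genes were at least 2-fold higher and 0 lower, with a median log2 ratio of 1.04 (1 of 8 higher, 0 lower and a median of 0.43 in 5-marker members).

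Of the independent markers 21 were measured with LPS, and 7 were at least 2-fold lower in ApoE4 and none higher, with a median log2 ratio of -0.79 beside -0.13 over all genes (4 of 21 and -0.47 in 5-marker members). Vascular tone genes had 8 of 25 lower (2 of 24 in 5-marker members), with Gucy1b1 and S1pr3 called on both lists in all members. Pth1r was 3.48-fold lower (2.29 to 5.51, 2.85-fold in 5-marker members), Slc30a10 3.0-fold lower (2.03 to 4.57, 2.29-fold in 5-marker members, 1.87-fold in cleaned members), Rgs4 2.46-fold lower (2.03 to 2.99, 2.1-fold in 5-marker members) and Gucy1b1 2.03-fold lower (1.64 to 2.54, 1.64-fold in 5-marker members). The endothelin receptor Ednra, through which endothelin contracts mural cells, had 132, 146, 100 and 33 UMIs (229, 279.6, 180.5 and 105 CPM) and was 2.67-fold lower (1.82 to 4.02, 2.14-fold in 5-marker members, 1.74-fold in cleaned members). Cspg4 was 2.0-fold lower (1.46 to 2.78, 1.46-fold in 5-marker members) and the potassium channel subunit Kcne4, with few UMIs, 1.72-fold lower (0.701 to 4.83, 2.79-fold in cleaned members). Ptn was 2.06-fold lower (1.91 to 2.22, 1.68-fold in 5-marker members), Grm7 3.45-fold lower (2.85 to 4.21, 2.7-fold in 5-marker members), the adaptor Gab1 2.91-fold lower (2.2 to 3.91, 2.64-fold in 5-marker members), the Rab regulator Tbc1d1 2.51-fold lower (1.69 to 3.85, 2.84-fold in 5-marker members), Spaar 3.71-fold lower (1.65 to 9.77, 2.07-fold in cleaned members), Car4 1.98-fold lower (1.63 to 2.41) and Mgp 1.43-fold lower (1.3 to 1.57).

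Some leading genes came from single barcodes. In the comparison of genotypes with NaCl, all 12 genes that led the higher side by the naming rule had most of their UMIs in 1 barcode of ApoE4 NaCl, among them the basophil and mast cell proteases Mcpt8, Prss34 and Cpa3 and the neuropeptides Vip, Cck and Crh. The same held for all 12 that led the lower side in ApoE4 after LPS, which share that library. Between the genotypes with LPS it held for 11 of 12 on the lower side, in ApoE3 LPS, and for 2 of 12 on the higher side. In ApoE3 it held for 6 of 12 on the higher side, such as Timp1 and Prg4, and for 1 of 12 on the lower side. Between the genotypes with NaCl it held for 4 of 12 on the lower side, and for 0 of 12 on the higher side in ApoE4 after LPS. These barcodes passed the rule, and their genes are not described as pericyte genes. Apoe itself had 64, 30, 49 and 27 UMIs (111, 57.5, 88.4 and 85.7 CPM) in members and 94.9, 75, 85 and 77 CPM in other barcodes. These are molecules assigned to the mouse gene in mice that carry the human gene, so they do not measure human APOE in full, and after thinning it was found in 2.96%, 1.38%, 6.45% and 1.59% of 5-marker members against 10.7%, 9.67%, 9.12% and 8.27% of other barcodes.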

How the data were processed

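The authors deposited 1 matrix of UMI counts per library from 10x Genomics 3′ sequencing, with no cell annotation. It was written by cellranger 7.0.1 per the file headers, and the submitters' processing notes name Cell Ranger 7.0 and mm10. Depth was 73288965 to 114378032 UMIs per library. Members were found by the marker rule, their counts were summed per library and scaled to CPM, and ratios were taken between libraries. A gene was measured with at least 30 UMIs over both libraries and called at a ratio of at least 2, leaving out the 16 genes of the rule. List medians use log2(CPM + 1). No test was made, with 1 library a group.

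The members, the 20 gene lists and the comparisons were chosen with earlier results of these data known. In each comparison the naming rule took the 12 genes higher and 12 lower with the largest fold at the interval bound nearest 1, the leading members of each list, and the pericyte markers. A gene had to reach 25% of its CPM in the highest other cell class of at least 50 barcodes. Because single barcodes led several of these, up to 15 genes per direction with at most 25% of their UMIs in 1 barcode, an interval on the same side in 5-marker members and the same direction in cleaned members were named too, chosen after their values were seen.

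Other cell classes came from counts of markers. Doublets were not removed, since the rule limits the UMIs of some vascular and microglial genes. It did not leave out every such barcode. Of members, 1.73%, 5.95%, 4.55% and 36.6% held 3 or more of 10 microglial markers. For 3 or more of 9 endothelial markers it was 5.78%, 16.7%, 5.19% and 14.6%. Scrublet in scanpy 1.11.5, at an expected 0.8% per 1000 barcodes, called 9.75%, 8.42%, 8.18% and 0% of quality barcodes, which included 32, 21, 17 and 0 members, and its calls were an alternative outside ApoE4 LPS. Alternatives changed the markers required, UMI and mitochondrial limits, other-class barcodes, depth, scaling, cell weight, low-count filter, pseudocount and fold. Scripts used numpy 2.4.6, scipy 1.17.1 and pandas 2.3.3 and were tested on simulated data. Some genes that the naming rule took are not reported here.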

Additional observations from a re-analysis of the deposited data

Results flagged for a closer look

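Barcodes under 1000 UMIs were left out of every comparison, and some held the pericyte marker combination: 60 of 751 in ApoE3 NaCl (7.99%), 57 of 677 in ApoE3 LPS (8.42%), 55 of 753 in ApoE4 NaCl (7.30%) and 91 of 10973 in ApoE4 LPS (0.829%), with median depths of 744, 749, 739 and 715 UMIs.

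For 5 of the named genes the counting interval of LPS over NaCl lay above equal levels in ApoE3 and below them in ApoE4, both in all members and in 5-marker members. Other genes had levels on either side without meeting this in both sets, and these differences between the genotypes were not tested. The log2 ratio of Gucy1b1 was 0.71 in ApoE3 and -0.52 in ApoE4, and that of Itga1 was 0.49 and -0.57. For Pth1r it was 0.93 and -0.89, for Rgs4 0.97 and -0.51, and for Slc30a10 0.59 and -1.18.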

How the results depend on the processing

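No paired analysis was possible because each group was 1 library. The limits of at least 5 markers, at most 10000 UMIs and both together were chosen after seeing the data. The member share, given for NaCl and LPS in ApoE3 and then in ApoE4, was 0.690%, 0.670%, 0.652% and 0.375% with at least 2000 UMIs, and 2.37%, 2.12%, 2.85% and 1.18% without other-class barcodes. With at least 5 markers it was 0.937%, 0.949% and 0.346% in ApoE3 NaCl, ApoE4 NaCl and ApoE4 LPS. With both added limits it was 1.01% in ApoE3 NaCl and 0.375% in ApoE4 LPS. In ApoE3 LPS it was 1.39% thinned and 1.35% with at most 10000 UMIs, and in ApoE4 LPS 0.418% with at least 4 markers.

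Counts of genes called are given as higher and lower, in the order LPS in ApoE3, LPS in ApoE4, genotype with NaCl and genotype with LPS, where the reported counts were 302 and 317, 189 and 405, 171 and 159, and 151 and 372. Without other-class barcodes they were 125 and 86, 103 and 158, 81 and 58, and 72 and 153. Thinned, they were 122 and 92, 211 lower, 37 and 75, and 85 and 170. With a filter of 100 UMIs they were 97 and 69, 46 and 89, 29 and 13, and 26 and 81, and with none 2521 and 3513, 2445 and 3868, 2814 and 2809, and 2783 and 3400. At 1.5-fold they were 928 and 972, 573 and 1091, 561 and 655, and 492 and 1156. With equal cell weights, LPS in ApoE4 had 388 higher, the NaCl genotypes 307 lower and the LPS genotypes 312 higher. Without called doublets, ApoE3 had 211 lower and the NaCl genotypes 109 higher. With at least 4 markers the NaCl genotypes had 330 lower. With at least 5, ApoE4 had 112 higher, the NaCl genotypes 269 lower and the LPS genotypes 91 higher. With at most 10000 UMIs, ApoE3 had 188 and the NaCl genotypes 92 higher. With both, ApoE3 had 167 higher, ApoE4 125 and 208, the NaCl genotypes 100 higher and the LPS genotypes 200 lower. Of the calls between genotypes with LPS, 28.9% were higher, and 45.3% with CPM without mitochondrial, ribosomal and the 10 most abundant genes.

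Some log2 ratios changed sign. The cell cycle median in ApoE3 went from 0.59 to -0.51 thinned, -0.50 with a filter of 100 UMIs and -1.27 with none. Msmo1 in ApoE3 went from -1.36 to 0.013 without other-class barcodes. The immediate-early median between NaCl genotypes went from 0.59 to -0.036 thinned, and the cholesterol median between LPS genotypes from 0.63 to -0.27. The complement median between LPS genotypes went from 0.68 to -0.19 with at least 4 markers, -0.32 with at least 2000 UMIs, -0.091 without other-class barcodes, -0.36 thinned, -0.33 with a filter of 100 UMIs, -0.16 with at least 5 markers and -0.17 with at most 10000 UMIs. The cause was not tested. Of 1159 list medians under an alternative 195 others moved beyond their limit, and of 1872 values of named genes 341 did. Members of ApoE4 LPS held 315238 UMIs, fewer than those of the other 3 libraries, which limits its low genes.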
